A study of Homo sapiens with 6 samples.

Results

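The 10 genes described here encode subunits of the transcription factor NF-kappa B (NFKB1, NFKB2 and RELB), regulators that feed back on the same pathway (NFKBIA, TNFAIP3 and BIRC3) and inflammatory products of NF-kappa B target genes (ICAM1, CXCL1, CXCL2 and CXCL8). They were chosen by gene symbol, and all 10 were found among the 19871 symbols of the deposited mRNA tables, where they cover 51 of 92866 transcripts. RNA of HCT116, an established epithelial cell line from a human colorectal carcinoma, was sequenced in 3 groups of 2 libraries each. The groups were a negative control (NC), cells given a GAS5 plasmid according to the treatment note (GAS5), and cells given YAP-specific siRNA (siYAP). The labels list all 3 groups under siRNA, and what the NC cells received, which YAP siRNA was used and the hour of harvest are not given in the sources used here. GAS5 is a long non-coding RNA and has no row in these mRNA tables. The study asked whether GAS5 restrains YAP, a transcriptional co-activator of the Hippo pathway, so both treatments were set against NC.

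The tables give 1 value per group, the authors' mean of its 2 libraries, so no spread between libraries could be computed, and no test was made. Total depth, as summed means, was 27206123 counts for NC, 25521577 for GAS5 and 26298036 for siYAP. Counts were summed over the transcripts of a gene and scaled to the NC depth, and a prior count of 2 was added to both means before the log2 fold change was taken. The intervals given are exact 95% intervals for counting error alone, so a difference beyond its counting interval may still lie within the unknown spread between cultures. A gene is called past 2-fold where its log2 fold change is 1 or more above or below 0. The targeted gene YAP1 had 3480 (NC), 2679 (GAS5) and 1444 (siYAP) mean counts, a log2 fold change of -1.18 in siYAP and -0.26 in GAS5. Of the colon epithelial markers, EPCAM, KRT8, KRT18, CDH1 and CDX2 were present in every group, and VIL1 had 0, 6.0 and 1.0 mean counts in NC, GAS5 and siYAP.

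NF-kappa B dimers rest in the cytoplasm, bound by inhibitor proteins. Receptors for TNF, interleukin 1 or microbial products activate the IKK kinases, which mark the inhibitor for degradation and release the dimer to the nucleus. Among the genes it then switches on are those of its own inhibitor NFKBIA, of the ubiquitin-editing enzyme TNFAIP3 (A20) and of the precursor subunits, which closes a feedback loop. CXCL1, CXCL2 and CXCL8 (interleukin 8) are chemokines that attract neutrophils, and ICAM1 is an adhesion molecule that leukocytes bind. In colon cancer cells these chemokines can be made by the tumour cells themselves.

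Of the 10 genes, 3 were past 2-fold in GAS5, all of them higher than in NC: CXCL8, TNFAIP3 and RELB. Among the 13382 gene sums that passed the low-count filter in this comparison, 2.22% were at least 2-fold higher and 0.897% at least 2-fold lower, and none of the 10 genes was in the second class. In siYAP, 1 of the 10 was past 2-fold, CXCL8, again higher than in NC. There the share of all 13315 filtered gene sums was 1.07% for at least 2-fold higher and 1.22% for at least 2-fold lower. All 10 genes passed the filter in both comparisons, and the median of their log2 fold changes was 0.41 in GAS5 and 0.27 in siYAP, against 0.00 over all filtered genes in each. The scaling itself holds the median over all genes near 0. The NC means enter both comparisons, so the values of GAS5 and siYAP against NC are not independent of each other. In bulk RNA a higher level in every cell and a much higher level in few cells cannot be told apart.

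The promoter windows of 4 of the genes are shown, because they carry matches to the sequence that NF-kappa B binds, in a gene that was past 2-fold in both treatments (CXCL8), in one past 2-fold in GAS5 alone (TNFAIP3) and in a pair that was past 2-fold in neither (CXCL1 and NFKBIA). Each window is 300 bases long, mostly upstream of a RefSeq start site on GRCh38.p14, and is written 5′ to 3′ along the gene. Capitals mark matches on either strand to the kappa B consensus, a degenerate motif of 10 bases, or to GGAATTTCC, the 9-base core of the CXCL8 site, which overlapped a consensus match in every gene that held it except CXCL8 and ICAM1.
CXCL8, chr4:73740319-73740618, plus strand: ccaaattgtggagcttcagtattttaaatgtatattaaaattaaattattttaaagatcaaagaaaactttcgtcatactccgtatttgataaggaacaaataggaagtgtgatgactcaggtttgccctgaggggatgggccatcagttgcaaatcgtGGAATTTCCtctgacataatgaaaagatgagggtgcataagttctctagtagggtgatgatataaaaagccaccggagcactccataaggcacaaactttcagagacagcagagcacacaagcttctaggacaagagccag
TNFAIP3, chr6:137867009-137867308, plus strand: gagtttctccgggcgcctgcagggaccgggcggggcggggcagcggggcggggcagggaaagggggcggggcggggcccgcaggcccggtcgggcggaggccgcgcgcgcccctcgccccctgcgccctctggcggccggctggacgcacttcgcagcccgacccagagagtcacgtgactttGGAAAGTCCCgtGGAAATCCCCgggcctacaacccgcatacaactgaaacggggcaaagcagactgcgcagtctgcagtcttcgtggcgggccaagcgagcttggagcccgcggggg
CXCL1, chr4:73869143-73869442, plus strand: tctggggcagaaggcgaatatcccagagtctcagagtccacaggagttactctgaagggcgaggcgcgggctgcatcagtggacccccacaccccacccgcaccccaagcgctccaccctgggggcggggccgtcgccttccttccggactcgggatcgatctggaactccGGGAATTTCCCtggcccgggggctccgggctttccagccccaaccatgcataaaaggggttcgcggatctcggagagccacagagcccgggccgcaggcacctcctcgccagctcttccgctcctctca
NFKBIA, chr14:35404700-35404999, minus strand: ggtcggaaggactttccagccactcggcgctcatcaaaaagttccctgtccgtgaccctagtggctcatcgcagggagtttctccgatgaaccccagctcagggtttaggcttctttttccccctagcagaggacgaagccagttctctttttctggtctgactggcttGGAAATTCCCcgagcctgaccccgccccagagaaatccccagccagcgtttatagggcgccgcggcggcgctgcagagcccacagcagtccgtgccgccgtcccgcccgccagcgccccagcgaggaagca

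A promoter window was found for 9 of the 10 genes, all but RELB. Of these 9 genes, 7 held a match to the kappa B consensus, against 11.3% of the 35116 RefSeq promoter windows of the same length. The core GGAATTTCC was present in 6 of the 9 genes, against 0.461% of all windows. The genes are known NF-kappa B targets and were listed for that reason, so these shares describe the list. The core was defined from the CXCL8 site, so the match of CXCL8 itself was given in advance. NFKB1 and NFKB2 had more than a single window, so counts of genes and shares of windows are not strictly alike. CXCL8 held no match to the consensus, and its core match lay from -91 to -83 relative to the start site, with a TATA box (TATAAA) from -31 to -26. It was also the only gene of the 9 with a match to the AP-1 motif TGANTCA, from -137 to -131, a motif found in 7.71% of all windows. TATAAA, also searched on both strands, was found along the gene in CXCL8 and ICAM1 and on the opposite strand alone in NFKBIA, against 11.5% of all windows with a match on either strand. In TNFAIP3 a pair of consensus matches lay from -67 to -58 and from -55 to -46. The windows of CXCL1 and CXCL2 were alike, with a pair of overlapping matches from -79 to -69 in CXCL1 and from -78 to -68 in CXCL2. Matches were present both in genes past 2-fold and in genes that were not, and a match in these letters does not show binding.

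**Figure D1:**
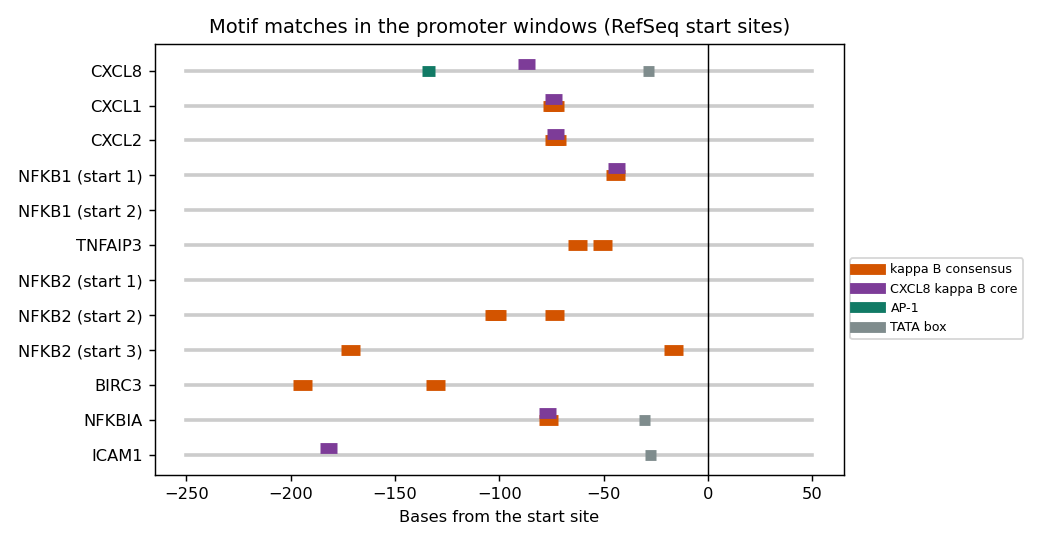
Motif matches in the promoter windows of 9 genes, by distance in bases from the RefSeq start site (vertical line), with 1 row for each start site. Coloured bars are matches to the kappa B consensus, the CXCL8 kappa B core, AP-1 and TATAAA (labelled TATA box), on either strand. Consensus or core matches lie upstream of the start site in every window but 1 of NFKB1 and 1 of NFKB2.

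Among the subunit genes, RELB stood out in GAS5. RELB encodes the subunit that pairs with the processed NFKB2 product in the non-canonical branch of the pathway. NC stood at a mean count of 309.5, GAS5 at 750.5 and siYAP at 430.5, or 815 and 457 after scaling. Against NC, GAS5 had a log2 fold change of 1.39 (counting interval 1.26 to 1.53) and siYAP 0.56 (0.41 to 0.71), so both treatments lay above NC and GAS5 lay highest. In GAS5 it ranked 173 from the highest of the 13382 gene sums.

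NFKB2, the precursor of the p52 subunit, was the most abundant of the 10 genes. NC stood at a mean count of 4906.5, GAS5 at 5068.5 and siYAP at 6031. Against NC, GAS5 had a log2 fold change of 0.17 (0.13 to 0.21) and siYAP 0.38 (0.34 to 0.42), so siYAP lay highest and neither value reached 2-fold. NFKB1, the precursor of the p50 subunit, had 1522 (NC), 1463.5 (GAS5) and 1174 (siYAP) mean counts. On the log2 scale GAS5 differed from NC by 0.06 (-0.01 to 0.14) and siYAP by -0.29 (-0.37 to -0.21). The GAS5 interval of NFKB1 contains 0, and with Ensembl transcripts alone its value there was -0.06. GAS5 was thus the highest group for RELB and siYAP for NFKB2, while for NFKB1 NC and GAS5 were not told apart and siYAP was lowest.

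The feedback regulators were uneven as well. TNFAIP3, which takes activating ubiquitin chains off pathway components, had 116 (NC), 395 (GAS5) and 125.5 (siYAP) mean counts. On the log2 scale GAS5 differed from NC by 1.87 (1.67 to 2.104), rank 100 from the highest. In siYAP it was 0.20 (-0.06 to 0.46), so NC and siYAP lay close together with GAS5 apart from both. NFKBIA, the inhibitor that holds the dimer in the cytoplasm, had 1209 (NC), 1420 (GAS5) and 1415 (siYAP) mean counts. Against NC, GAS5 had a log2 fold change of 0.35 (0.27 to 0.43) and siYAP 0.31 (0.23 to 0.39), nearly the same shift in both treatments. BIRC3 encodes a ubiquitin ligase of the TNF receptor complex, with 180.5 (NC), 231 (GAS5) and 140.5 (siYAP) mean counts. On the log2 scale GAS5 differed from NC by 0.47 (0.27 to 0.68) and siYAP by -0.27 (-0.51 to -0.05), on opposite sides of NC. On GRCh38 (GENCODE 29) BIRC3 lies on chromosome 11 from 102317450 to 102339403, 84.0 kb beyond the end of the YAP1 gene.

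**Figure D2:**
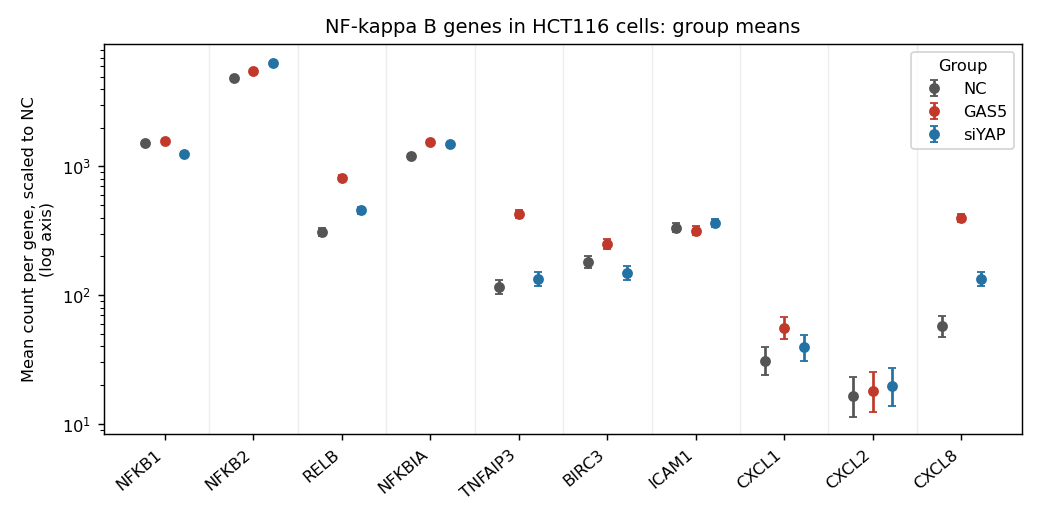
Mean count of each of the 10 genes in NC, GAS5 and siYAP, scaled to the NC depth, on a log axis. Points are the authors' means of 2 libraries summed by gene, and bars are exact 95% counting intervals. CXCL8, TNFAIP3 and RELB show the widest gaps between GAS5 and NC.

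Among the inflammatory products CXCL8 differed most from NC in both treatments. It had 57.5 (NC), 366.5 (GAS5) and 126.5 (siYAP) mean counts. After scaling, GAS5 stood at 398 (counting interval 370 to 428) and siYAP at 134 (118 to 152), against 47.5 to 69.0 in NC. None of the 3 intervals overlapped, which alone does not set CXCL8 apart. Those of NFKB2 (4810 to 5005 in NC, 5396 to 5611 in GAS5, 6283 to 6512 in siYAP) did not overlap either. For CXCL8, GAS5 had a log2 fold change of 2.75 (2.51 to 3.09) against NC, or 6.72-fold higher. That of siYAP was 1.19 (0.90 to 1.55), or 2.29-fold higher. The lower bound in siYAP lies under the 2-fold line. CXCL8 ranked 46 from the highest in GAS5 and 89 from the highest in siYAP.

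The other chemokines were scarce. CXCL1 had 31 (NC), 51.5 (GAS5) and 37 (siYAP) mean counts, a log2 fold change of 0.81 in GAS5 (0.38 to 1.33) and of 0.32 in siYAP (-0.17 to 0.85). CXCL2 had 16.5 (NC), 16.5 (GAS5) and 18.5 (siYAP) mean counts, a log2 fold change of 0.11 (-0.62 to 0.86) and 0.23 (-0.47 to 0.97). Both CXCL2 intervals contain 0 and lie within 2-fold in either direction, as far as counting error goes, and with its Ensembl transcript alone the siYAP value was -0.55. For CXCL1 in GAS5 the interval reaches from below to above 2-fold. CXCL1 and CXCL2 also share sequence with each other and with CXCL3: of the 50-base stretches of the transcript used, 94.3% of CXCL1 and 90.8% of CXCL2 occur in no other GENCODE 29 gene. For the other 8 genes this share was 99.4% or more, and for CXCL8 it was 100%. ICAM1 had 334.5 (NC), 293 (GAS5) and 342 (siYAP) mean counts, with a log2 fold change of -0.07 in GAS5 (-0.24 to 0.09) and of 0.12 in siYAP (-0.04 to 0.27). CXCL8 was thus past 2-fold, while both ICAM1 intervals contained 0.

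**Figure D3:**
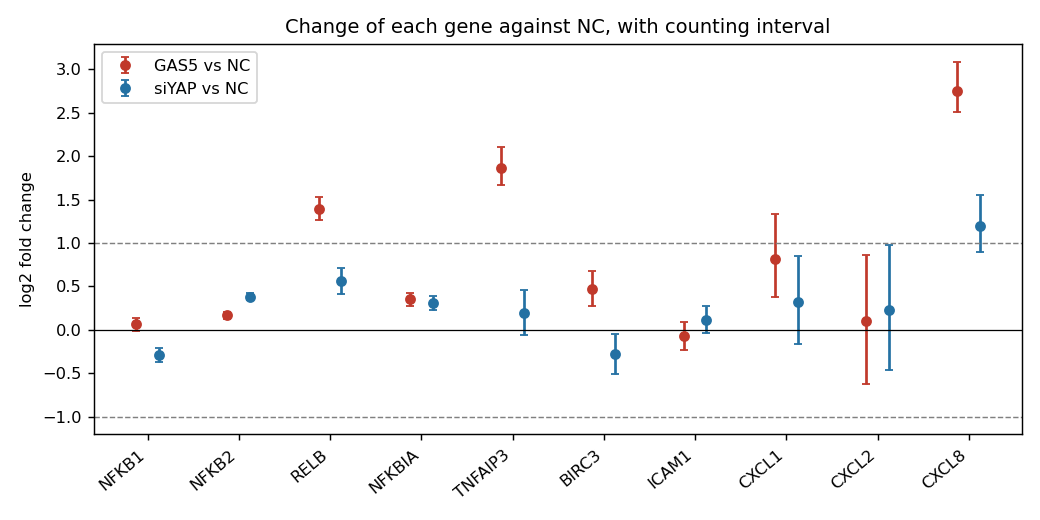
Log2 fold change of each gene against NC for GAS5 and for siYAP, with bars for the exact 95% counting interval and dashed lines at 2-fold. In GAS5, CXCL8 (2.75), TNFAIP3 (1.87) and RELB (1.39) lie above the line, and in siYAP CXCL8 (1.19) does.

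Levels between genes were compared in FPKM, which allows for transcript length. In NC the order was NFKB2 (60.8 FPKM), NFKBIA (28.1), NFKB1 (14.7), RELB (4.91), ICAM1 (3.997), TNFAIP3 (1.33), CXCL8 (1.31), BIRC3 (1.27), CXCL1 (1.02) and CXCL2 (0.43). The neighbours TNFAIP3, CXCL8, BIRC3 and CXCL1 had overlapping counting intervals, so their order is not settled, while the others were apart. In GAS5 the FPKM of CXCL8 was 8.51 and that of TNFAIP3 4.86, both above ICAM1 at 3.67. RELB reached 12.7 FPKM there, close under NFKB1 at 15.1. In siYAP, CXCL8 at 2.84 FPKM stayed below ICAM1 at 4.08.

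Single transcripts were looked at next, because the sums could hide a switch between them. Of the 51 transcripts of these genes, 9 were assembled from the reads, the other 42 are annotated as protein coding in GENCODE 29, and 14 were listed at 0 in all groups. Of the 26 with at least 20 mean counts in 1 group, 8 were past 2-fold in GAS5 and 9 in siYAP, most of them from TNFAIP3. Any 1 group was enough to meet the minimum, so a transcript could pass only through the group where it was high. ENST00000621150 of TNFAIP3 passed through GAS5 (25.2 mean counts) and counted as past 2-fold in siYAP at 8.85 against 0 in NC. The share over all 37893 transcripts that met this minimum was 18.8% in GAS5 and 19.9% in siYAP. These shares were far above those for gene sums. How reads are divided among overlapping transcripts is estimated, so these values are less firm than the sums.

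For CXCL8, ENST00000307407 held 95.2% of the count in NC and 93.8% in GAS5, and had 54.7, 344 and 121 mean counts in NC, GAS5 and siYAP. For RELB, both expressed transcripts were higher in GAS5. ENST00000625761 had 290, 588 and 394 mean counts in NC, GAS5 and siYAP, and ENST00000505236 had 19.2, 163 and 36.0.

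TNFAIP3 was divided among many transcripts. ENST00000237289 was listed at 0 in NC, with 187 mean counts in GAS5 and 25.4 in siYAP. ENST00000615468, the most abundant in NC, had 43.3 mean counts there, 0 in GAS5 and 2.79 in siYAP, so by this transcript alone TNFAIP3 would be lower in GAS5 (log2 fold change -4.50) although its sum was higher. ENST00000612899 (39.4, 90.0 and 48.3 in NC, GAS5 and siYAP) and ENST00000619035 (25.95, 74.5 and 11.3) were higher in GAS5, while ENST00000619035 was lower in siYAP. ENST00000621150 had 0, 25.2 and 8.85 mean counts, and ENST00000620204 was above 0 in siYAP alone, at 20.1.

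NFKB1 had transcripts past 2-fold although its sum was not. In siYAP, ENST00000226574 went from 269 to 119 mean counts (log2 fold change -1.08) and ENST00000600343 from 44.9 to 13.0 (-1.57), while ENST00000505458 stood at 389 in NC and at 429 in siYAP. The most abundant NFKB1 entry, assembled from the reads, had 553, 609 and 396 mean counts in NC, GAS5 and siYAP. An assembled NFKB2 transcript went from 110 in NC to 51.0 in siYAP (-1.004), a small part of the gene, whose main transcript ENST00000189444 had 3239, 3527 and 4094. In 3 further genes 1 transcript led each group: ENST00000216797 with 96.5% of the NFKBIA count in NC, ENST00000263464 with 92.5% of BIRC3, and ENST00000264832 with 95.3% of ICAM1. CXCL1 had the single transcript ENST00000395761. CXCL2 was split, with 11.9, 15.0 and 7.11 mean counts of ENST00000508487 in NC, GAS5 and siYAP and the rest in an assembled transcript.

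**Figure D4:**
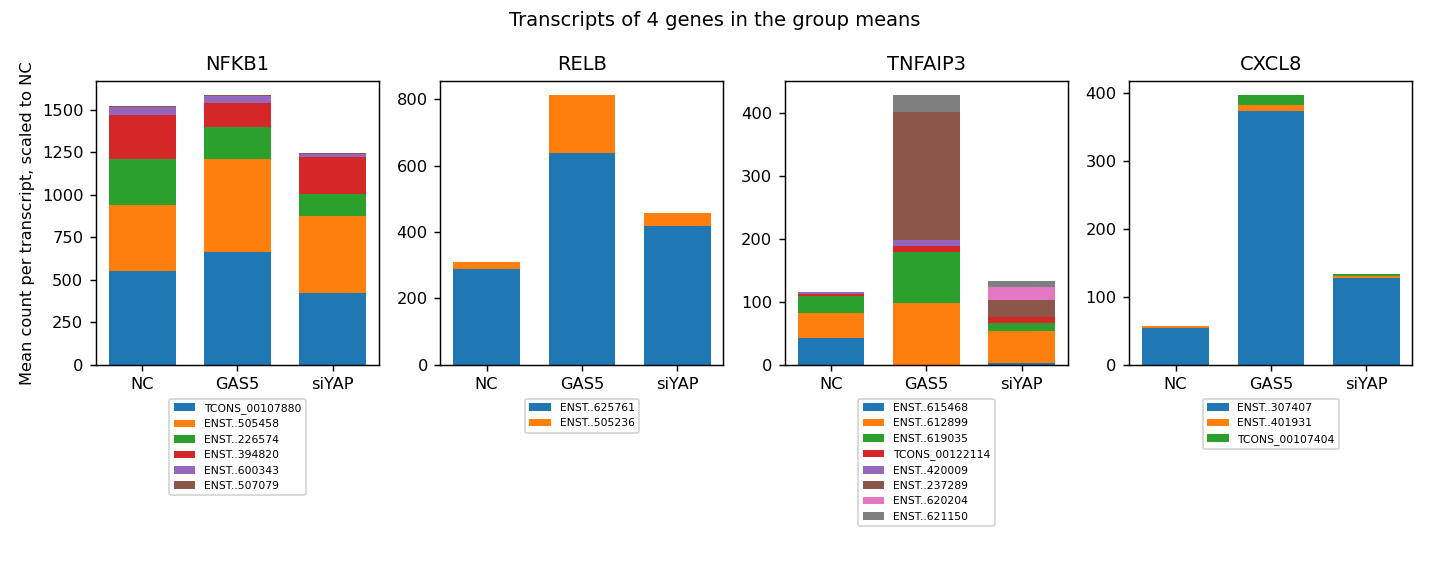
Mean counts of the transcripts of NFKB1, RELB, TNFAIP3 and CXCL8, scaled to the NC depth and stacked from 0, in NC, GAS5 and siYAP (identifiers shortened in the legend). The whole bar is the gene sum, and in TNFAIP3 the transcripts that make up the bar differ between NC and GAS5.

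Few other genes of the pathway were past 2-fold, as was also the case over all filtered gene sums. Of those, 2.22% (GAS5) and 1.07% (siYAP) were at least 2-fold higher, and 0.897% and 1.22% at least 2-fold lower. Of 18 receptor and adaptor genes, 16 passed the filter, and their median log2 fold changes were 0.05 (GAS5) and 0.08 (siYAP). In GAS5, TLR3, a receptor for double-stranded RNA, was the 1 gene of that list past 2-fold, with 60 (NC), 132.5 (GAS5) and 60 (siYAP) mean counts (log2 fold change 1.23 and 0.08). None of the list was past 2-fold in siYAP. All 12 kinase and ubiquitin ligase genes passed the filter, none was past 2-fold in either treatment, and their medians were 0.02 and 0.00. All 11 genes for other subunits and inhibitors passed too, with none past 2-fold and medians of 0.12 and 0.19.

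Of 31 other target genes, 17 passed the filter in GAS5 and 16 in siYAP, with medians of -0.09 and 0.13. TNFRSF9, a co-stimulatory receptor of the TNF receptor family, was the 1 gene past 2-fold. It had 9.5 (NC), 29 (GAS5) and 20.5 (siYAP) mean counts (1.54 and 1.05). The NC count is under the filter's minimum count of 10, so the gene passed through the treated groups. Its counting intervals, 0.96 to 2.56 in GAS5 and 0.38 to 2.06 in siYAP, both reach below the 2-fold line. In GAS5, 6 of the 17 were above 0, against 6726 of all 13382 filtered gene sums. The values ran from -0.45 (PTGS2) to 1.54 (TNFRSF9). The other 5 above 0 were CXCL3 (0.52), TRAF1 (0.50), CD83 (0.50), IL32 (0.49) and LCN2 (0.46). The counting intervals of TRAF1 and CD83 lay above 0, and those of CXCL3, IL32 and LCN2 contained 0. CXCL3 had 8.5 (NC) and 12 (GAS5) mean counts, so it passed the filter through GAS5 alone and its place above 0 carries no weight. Of 5 receptor genes for the chemokines and ICAM1, 1 passed the filter in GAS5, the integrin chain ITGAM, with 14.5 (NC), 33 (GAS5) and 20.5 (siYAP) mean counts (1.20 and 0.53). The high values of CXCL8, TNFAIP3 and RELB in GAS5 were thus not shared by most genes of these lists, and 2-fold values were rare over all genes too.

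**Figure D5:**
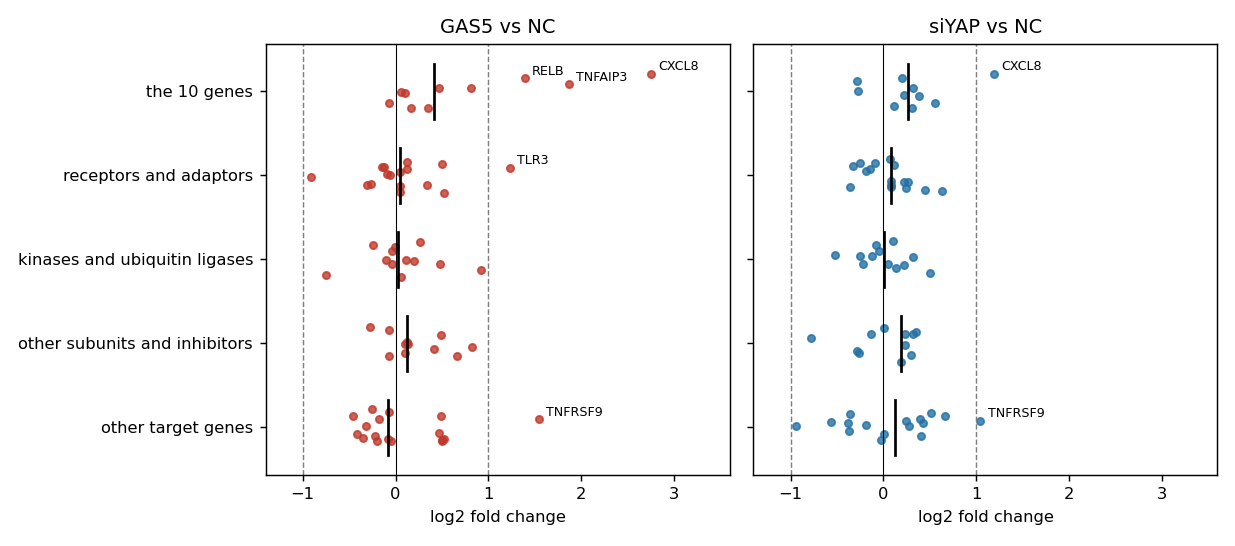
Log2 fold change of the 10 genes and of 4 lists of further pathway genes that passed the filter, in GAS5 and in siYAP against NC. Each point is a gene, black bars are medians, dashed lines mark 2-fold, and the medians of the 4 lists lie between -0.09 and 0.19.

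A list of 7 interferon-stimulated genes was also higher in GAS5. All 7 (IFIT1, IFIT2, IFIT3, ISG15, MX1, OAS1 and IFI6) were past 2-fold there, against 2.22% of all filtered gene sums at least 2-fold higher. This list was written with earlier results of these data known, so the count describes the list. The median was 3.36 on the log2 scale, and the summed level was 99.9 FPKM in NC and 832 in GAS5. In siYAP none was past 2-fold, the median was 0.14 and the summed level 119 FPKM, while CXCL8 was past 2-fold. Their part in the values of CXCL8, TNFAIP3 and RELB was not tested. Of the 6 leukocyte markers, PTPRC was listed at 0 in all groups. The 6 markers summed to 4.57 FPKM in NC, 6.76 in GAS5 and 4.37 in siYAP, mostly CD68, and CD14 went from 4.5 mean counts in NC to 37.5 in GAS5 with 3.0 in siYAP. Fibroblast markers summed to between 2.22 and 3.36 FPKM, nearly all COL1A1, with DCN and LUM at 0, and endothelial markers to between 0.175 and 0.235 FPKM.

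By distance between the pair of log2 fold changes, the genes nearest to CXCL8 among 11907 with at least 50 mean counts were JUN, BATF2 and OASL. JUN, a subunit of the AP-1 transcription factor, had 391 (NC), 2255.5 (GAS5) and 595.5 (siYAP) mean counts, with log2 fold changes of 2.64 and 0.69. The transcription factor gene BATF2 had 2.29 and 0.94, and OASL 3.004 and 0.62. The distances of JUN, BATF2 and OASL were 0.52, 0.53 and 0.63 on the log2 scale. In siYAP all 3 genes stayed below 2-fold, while CXCL8 was past it. The order rests on 3 group means, and a link between these genes was not tested.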

How the data were processed

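Strand-marked libraries of HCT116 RNA were aligned with TopHat2 2.1.1 according to the submitters' processing notes. The counting tool, genome build and annotation are not given in the sources used here. The authors deposited, for each transcript, expected counts (estimated counts, not normalized) and FPKM, both averaged over the libraries of a group, with an FPKM of 0 written as 0.001. The authors' deposited log2 fold changes, p-values and FDR were not used.

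The tables were joined by identifier, and symbols were read from the siYAP table in upper case. Counts were summed by symbol, and transcripts without a symbol (339, with 0.224% of the NC counts) were left out. Of the 30 sums (10 genes in 3 groups), 28 were within 0.05 of a whole number after doubling, as means of 2 libraries should be. Sums were rounded for scaling with edgeR 4.0.16 (TMM, filterByExpr with a minimum count of 10) on the means of NC and 1 treatment. For log2 fold changes, 2 was added as prior count to the unrounded sums. Counting intervals are exact binomial (Clopper-Pearson) for ratios and exact Poisson for levels, on the counts behind 2 libraries. Motifs and sequence sharing were computed in Python 3.11.15 from RefSeq windows and GENCODE 29 transcripts. DESeq2 1.42.0 gave alternative size factors. The TMM scaling and the log2 fold changes of gene sums were tested on simulated counts of 1 comparison, with counting error alone. The other steps were not tested in this way.

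No test was run, since each group has 1 mean. The genes and lists were chosen with earlier results of these data known. Named in the text are the 10 genes, list genes past 2-fold, the 3 genes nearest to the member that changed most, the leading transcript of each gene and transcripts of at least 20 mean counts past 2-fold. Other genes were named after their values were seen.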

Additional observations from a re-analysis of the deposited data

How the results depend on the processing

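No paired analysis was possible because the libraries of a group were averaged before deposit. The edgeR and DESeq2 tests, the replicate block and the leaving out of each replicate were not run either, since they need values per library. DESeq2 size factors, total counts and no filter on low counts left 3 genes past 2-fold in GAS5 and 1 in siYAP. So did a prior count of 0.5, the ratio of summed FPKM and Ensembl transcripts alone. With a fold of 1.5 the numbers were 4 and 1. The share of all genes past 1.5-fold was not computed, so these numbers cannot be set against it. Over the alternatives that keep all transcripts, CXCL8 ran from 2.70 to 2.78 in GAS5 and from 1.12 to 1.22 in siYAP, TNFAIP3 from 1.84 to 1.88 and RELB from 1.36 to 1.40 in GAS5, while TNFAIP3 (-0.03 to 0.20) and CXCL2 (-0.05 to 0.24) in siYAP took either sign. With Ensembl transcripts alone, NFKB1 in GAS5 turned from 0.06 to -0.06 and CXCL2 in siYAP from 0.23 to -0.55. With the most abundant NC transcript in place of the sum, TNFAIP3 reversed to -4.50 in GAS5 and had -3.19 in siYAP, so 2 genes were past 2-fold higher in GAS5 and 1 gene was past 2-fold lower in each comparison. That transcript is listed at 0 in GAS5, so the fitted value depends on the prior count. Intervals cover counting error only.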

Other observations

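TNF, the cytokine that gives its name to the best known route to NF-kappa B, was listed at 0 in NC and siYAP and had 10 mean counts in GAS5. The gene did not pass the low-count filter, and no fold is given against a group at 0. CCL20, a chemokine of the intestinal epithelium, had 0, 4.5 and 2.0 mean counts in NC, GAS5 and siYAP. Both genes were named after their values were seen.

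Below the 2-fold line, MAP3K14, the kinase of the non-canonical branch that RELB belongs to, had 509.5 (NC), 887 (GAS5) and 527.5 (siYAP) mean counts. Its log2 fold change was 0.92 in GAS5 and 0.13 in siYAP. NFKB2, of the same branch, had 0.17 in GAS5, and the median of the kinase and ubiquitin ligase list was 0.02 there. In GAS5 the inhibitor genes NFKBID (0.82) and NFKBIE (0.66) were also higher than in NC. NFKBIZ (0.49) and NFKBIB (0.42) were higher by less, BCL3 (-0.07) was not higher, and the median of their list was 0.12. RBCK1, a subunit of the linear ubiquitin ligase, had 3696 (NC), 2024 (GAS5) and 4350 (siYAP) mean counts (-0.75 and 0.32). In siYAP, REL, a further subunit, had 781 mean counts against 1429 in NC (-0.78), and PTGS2 had 27.5 against 58 (-0.94). Apart from NFKB2, these genes were named after their values were seen, and none of the differences was tested.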
